A study of Mus musculus with 47 samples.

Results

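Luminal progenitor cells from mice given estradiol, progesterone and the progesterone receptor antagonist telapristone acetate were set against the same sorted fraction from sham mice that received no hormone. The comparison rests on 8 RNA-seq libraries, chosen by fraction and treatment label, out of 47 in the series: 4 from hormones plus telapristone (EP_TPA, mice 312, 323, 328 and 336) and 4 from sham (mice 301, 305, 310 and 326), each from a different mouse. All mice were of the FVB strain and ovariectomized, sham included, and treatment ran for 14 days. The labels give no age, dose or route, and no group received estradiol alone or telapristone alone, so the difference between EP_TPA and sham holds both hormones and the antagonist together. Luminal progenitor libraries from 4 mice given estradiol and progesterone without antagonist (EP, mice 306, 311, 322 and 327) are given beside them. The test was fitted with a further group as well, 4 mice given both hormones and RU486 (EP_RU486, mice 304, 308, 324 and 329), another progesterone receptor antagonist that also blocks the glucocorticoid receptor, and these libraries enter the estimate of spread behind every p. The comparisons share libraries: that of EP with sham uses the same sham libraries and those of EP_TPA with EP and with EP_RU486 the same EP_TPA libraries, so those folds are set side by side and not counted as separate evidence.

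Luminal progenitors are the sorted luminal fraction that gives rise to milk-secreting alveolar cells, and most of them carry little estrogen or progesterone receptor. Progesterone reaches them mainly through neighbouring receptor-positive mature luminal cells, which answer the hormone by secreting RANKL (Tnfsf11), Wnt4 and other factors that act on progenitor and basal cells. Telapristone binds the progesterone receptor and blocks its activation. The question put to the data was which differences from the hormone-free state remained, or appeared, when the receptor was blocked while both hormones were given.

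The summed expression values were 300032 to 345430 in the EP_TPA libraries and 297710 to 333888 in the sham libraries, and 10410 to 10872 genes in EP_TPA and 10195 to 10724 genes in sham had a value above 1. The values are on the scale of FPKM, fragments scaled to transcript length and library size. Many genes have a lowest value, shared by several libraries, that need not be 0. The values were therefore treated as FPKM shifted gene by gene before deposit, which was not tested. If they were shifted, fold sizes of genes near that lowest value are understated. Read depth was not given. Library EP_TPA 336 stood apart from the other 3 of its group: the SD of log2 differences to them was 0.470 to 0.537, against 0.271 to 0.357 among the other 3. All 22 luminal progenitor markers had a mean level above 1 in EP_TPA and in sham, and their summed level was 11885 to 25918 in EP_TPA against 23388 to 33959 in sham. The highest EP_TPA sum is that of library 336, in which the marker Trf, described with the milk proteins, stands at 11141 against 289 in the other 3, and without Trf the sums were 11596 to 15100 in EP_TPA and 14031 to 22526 in sham, which still overlap. The mature luminal markers summed to 258 to 380 in EP_TPA and 559 to 979 in sham, and those ranges do not overlap.

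In all, 619 of 11416 genes tested (5.42%) differed between EP_TPA and sham at an adjusted p under 0.05 (limma on log2(level + 1), Benjamini-Hochberg over all genes tested), 222 higher (1.94%) and 397 lower (3.48%). The median log2 fold of the genes called was 0.71 among those higher and -0.90 among those lower. A log2 fold of 1 or more was reached by 61 of the genes higher, and one of -1 or less by 159 of the genes lower. Without rescaling between libraries the median log2 fold over all genes tested was 0.0974 and the split became 443 higher and 243 lower. Leaving out single libraries gave 334 to 716 genes, and the count was 334 without EP_TPA 323, 385 without EP_TPA 328, 411 without sham 301, 337 without sham 310 and 372 without sham 326. By the same test 2080 genes (18.2%) differed between EP_TPA and EP, 872 higher (7.64%) and 1208 lower (10.6%), and 3730 (32.7%) between EP and sham, 1905 higher (16.7%) and 1825 lower (16%). Counts of called list members given below are to be read beside these shares of all genes. Between EP_TPA and EP_RU486 limma called 0 of 11416 genes (0%), with 204 at an unadjusted p under 0.05, which does not show that the antagonists act alike. The groups EP_TPA and sham did not overlap at 1610 genes (14.1%), of which 714 were higher (6.25%) and 896 lower (7.85%) in EP_TPA.

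**Figure D1:**
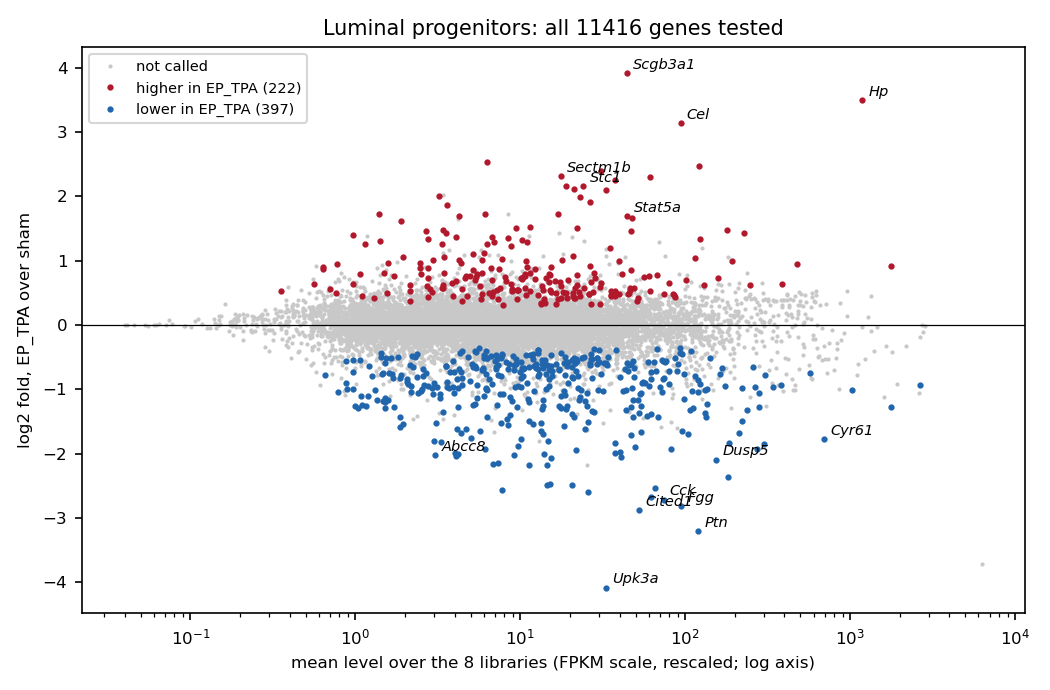
Log2 fold of EP_TPA over sham (vertical axis) against the mean level over the 8 libraries (horizontal log axis, FPKM scale) for the 11416 genes tested; red points are the 222 genes called higher, blue points the 397 called lower and grey points the rest. Scgb3a1 is the highest point with a log2 fold of 3.92, and Upk3a the lowest at -4.08; the lone grey point at the lower right is Trf, described with the milk proteins.

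The genes with the clearest rise over sham included several that encode secreted proteins. Haptoglobin (Hp), a plasma-type protein that binds free haemoglobin, had the smallest p of all genes. Hp reached 1857, 2327, 2255 and 2242 in the EP_TPA libraries, 632, 816, 639 and 440.1 in the EP libraries and 201, 192, 169 and 204 in the sham libraries. The 3 groups did not overlap, and the log2 fold over sham was 3.495 ± 0.17 (SE, n = 4 each, adjusted p 6.33e-09). Scgb3a1, a small secretoglobin, had 30.9, 139, 77.5 and 90.5 in EP_TPA, 10.6, 9.54, 10.8 and 7.84 in EP and 4.08, 3.92, 4.02 and 3.81 in sham, where it lay just over its shared lowest value of 3.66. Its EP_TPA libraries spread widely, yet all 4 lay above every EP and sham library (log2 fold 3.92, adjusted p 4.5e-06).

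Cel, the bile salt-stimulated lipase that is also secreted into milk, averaged 169 ± 38.6 in EP_TPA, 37.1 ± 29.6 in EP and 18.2 ± 3.1 in sham (SD, n = 4 each), a log2 fold over sham of 3.14 (adjusted p 7.8e-05). Stanniocalcin 1 (Stc1), a secreted glycoprotein hormone, averaged 40.04 ± 3.78 in EP_TPA against 8.32 ± 1.903 in sham (log2 fold 2.16, adjusted p 1.35e-05). Qsox1, an enzyme that forms disulfide bonds in secreted proteins, averaged 208 ± 56.6 against 35.9 ± 1.93 (log2 fold 2.47, adjusted p 7.8e-05), and Chst8, a sulfotransferase that acts on sugar chains of glycoproteins, 11.5 ± 3.86 against 1.08 ± 0.0868 (2.54, adjusted p 2.24e-06). Khdrbs3, an RNA-binding splicing regulator, was higher by 2.30 (adjusted p 6.63e-08). F3, tissue factor that starts blood coagulation, rose by 1.44 and Isyna1, which makes inositol phosphate, by 1.66 on the log2 scale. The other genes among the 15 with the smallest p were Stat5a, Nt5dc2, Gmds, Col4a5, Col9a1 and Rcc2, with log2 folds of 0.80 (Gmds) to 2.17 (Col9a1). These 15 kept their call under each of the 18 alternative settings tried.

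**Figure D2:**
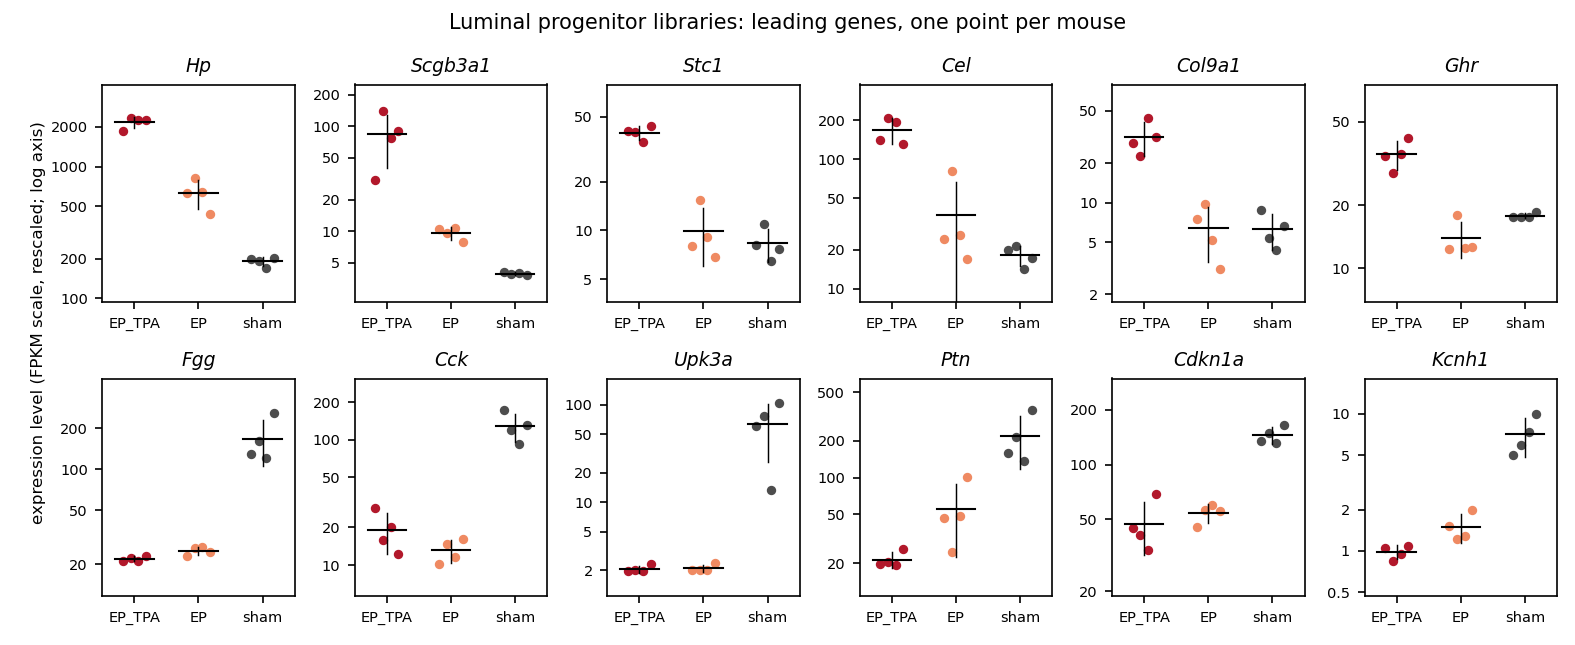
Levels (FPKM scale, rescaled, log axis) of 12 genes in the EP_TPA, EP and sham luminal progenitor libraries; points are mice, horizontal lines means and vertical lines ± SD, which run off the panel where mean minus SD nears 0. Hp and Scgb3a1 step down from EP_TPA to EP to sham, Stc1, Cel, Col9a1 and Ghr are high in EP_TPA, and the lower row holds genes that are high in sham.

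The genes with the clearest fall included a pair of fibrinogen chains, the peptide hormone cholecystokinin and the cell cycle inhibitor p21. Fgg, the gamma chain of the clotting protein fibrinogen, had 21.3, 22.3, 21.1 and 23.1 in EP_TPA, 23.1, 26.3, 26.8 and 24.7 in EP and 130.0, 161, 121 and 257 in sham (log2 fold over sham -2.81 ± 0.17, adjusted p 6.63e-08). Fgb, the beta chain, had 13.97 to 14.8 in EP_TPA against 60.8 to 219.7 in sham. Its EP_TPA libraries sat just over the gene's shared lowest value of 13.9. Upk3a, a uroplakin of the urothelial membrane, had 1.97, 2.02, 1.97 and 2.33 in EP_TPA and 60.9, 77.1, 13.5 and 103 in sham, with 2 of the 4 EP_TPA libraries at the lowest value of 1.97. Its sham libraries spread over a wide range and none overlapped EP_TPA (log2 fold -4.08, adjusted p 4.03e-05). Fam25c likewise lay at 17.3 to 20.9 in EP_TPA, close to a lowest value of 16.9, against 74.99 to 155 in sham.

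Cck, cholecystokinin, averaged 19.2 ± 6.97 in EP_TPA, 13.2 ± 2.72 in EP and 129 ± 32.7 in sham (log2 fold over sham -2.71, adjusted p 1.85e-05). Kcnh1, a voltage-gated potassium channel, averaged 0.984 ± 0.1103 in EP_TPA and 7.08 ± 2.21 in sham (-1.99, adjusted p 2.58e-06). Ramp1, a subunit of the receptor for calcitonin gene-related peptide, averaged 11.7 ± 1.45 in EP_TPA, 5.55 ± 0.613 in EP and 38 ± 4.503 in sham, so EP_TPA lay between EP and sham without overlapping either (log2 fold over sham -1.62, over EP 0.95, adjusted p 1.35e-05 and 0.00046). Ptn, the secreted growth factor pleiotrophin, averaged 21.4 ± 3.13 in EP_TPA against 218 ± 99.8 in sham (-3.20, adjusted p 6.48e-05). Cyr61, a matrix-associated signalling protein, averaged 313 ± 30.8 in EP_TPA and 1084 ± 236 in sham (-1.77, adjusted p 5.92e-05). Clip4, Tspan1, Nabp1, Gramd3 and Cdc42ep1 completed the 15 with log2 folds of -2.57 (Clip4) to -1.05 (Cdc42ep1), and these 15 kept their call under every alternative in which they were tested (Kcnh1 was not tested under the stricter filter).

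Some of these genes ordered the sham libraries as the mature luminal markers did. The mean of the mature luminal list relative to the sham average was 0.37 in sham 326, 0.11 in sham 305, -0.21 in sham 301 and -0.26 in sham 310 (log2). Ptn, Fgg, Clip4, Cdkn1a and Upk3a, 5 of the 15 genes above, ranked the sham libraries in that same order, as did 37 of all 397 genes lower (9.32%) and 458 of the 11416 genes tested (4.01%). The 37 include Cited1, Fgfr2 and Prlr, members of the list that set the order. The share of 9.32% is therefore partly built in. In EP_TPA the list lay at -0.95 to -1.13. In bulk libraries fewer cells of a type and less RNA per cell cannot be told apart, and the part of mature luminal cells in these differences was not tested. Without both sham 326 and EP_TPA 336, an alternative chosen after the data were seen, 504 genes differed, 182 higher and 322 lower.

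A set of genes had a level in EP_TPA apart from both sham and EP. Ghr, the growth hormone receptor, had 34.3, 28.5, 35.1 and 41.9 in EP_TPA, 12.4, 17.9, 12.4 and 12.7 in EP and 17.5, 17.6, 17.5 and 18.6 in sham, so EP_TPA lay above EP and sham (log2 fold 0.92 over sham and 1.28 over EP, adjusted p 0.000427 and 7.57e-06). Col9a1, a collagen IX chain, averaged 31.7 ± 9.099 in EP_TPA, 6.401 ± 2.86 in EP and 6.25 ± 1.88 in sham, and Col4a5, a basement membrane collagen chain, 16.1 ± 0.861, 5.05 ± 1.88 and 6.01 ± 0.853. Stc1, Cel, Hp, Scgb3a1 and Sectm1b belonged to the same 8. Sectm1b, a small secreted or membrane protein, had 51.6, 21.1, 26.3 and 22.2 in EP_TPA and 3.89 to 8.11 in sham. None of the 8 passed the test between EP_TPA and EP_RU486: Ghr had 28.5 to 41.9 in EP_TPA and 29.6 to 35.8 in EP_RU486, Col9a1 22.5 to 44.1 and 32.3 to 57.1, Col4a5 14.9 to 16.97 and 13.4 to 18.4, and Stc1 34.9 to 44.03 and 36.7 to 54.5. For Stc1, Col4a5 and Col9a1 the EP libraries did not pass the test against sham (adjusted p 0.528, 0.272 and 0.963).

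Genes lower in EP_TPA than in both EP and sham included Tbx3, a transcription factor of hormone receptor-positive luminal cells. Tbx3 had 1.84, 1.55, 1.54 and 1.77 in EP_TPA, 14.98, 5.29, 15 and 18.7 in EP and 4.66, 18.9, 5.897 and 12.7 in sham (log2 fold -1.93 over sham and -2.32 over EP, adjusted p 0.00882 and 0.00082). In EP_RU486 Tbx3 had 1.65 to 4.47. Abcc8, the sulfonylurea receptor subunit of a potassium channel, had 0.546 to 0.577 in EP_TPA, 1.41 to 13.8 in EP and 3.71 to 8.49 in sham. Eps8, a substrate of the EGF receptor that acts on actin, averaged 1.72 ± 0.136 in EP_TPA, 9.13 ± 5.03 in EP and 7.65 ± 2.71 in sham, and Tuba8, an alpha tubulin, 3.36 ± 0.803, 24.3 ± 11.8 and 16.1 ± 7.37. Ppfibp2, Ccdc71l, Pxylp1 and Abhd11os had log2 folds over sham of -1.35 (Abhd11os) to -1.07 (Ccdc71l). Abhd11os is transcribed opposite another gene, and the labels do not say that strand was used in counting, so reads of the pair cannot be told apart. In EP the mature luminal list was lowest in library 311, which also had the lowest EP level of Tbx3, Abcc8, Eps8 and Tuba8. Tbx3 is itself a member of that list. The part of mature luminal cells in these levels was not tested.

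Other genes stood on the same side of sham in EP_TPA and in EP. Stat5a, the transcription factor that carries prolactin signals, had 105, 66.3, 60.6 and 45.2 in EP_TPA, 80.3, 64.2, 61.7 and 69.3 in EP and 16.6, 24.2, 18.6 and 20.2 in sham. F3 averaged 331 ± 30.6 in EP_TPA, 289 ± 69.5 in EP and 122 ± 18.4 in sham, and Isyna1 73.7 ± 21.99, 58.3 ± 18.01 and 22.02 ± 2.62. Neither Stat5a, F3 nor Isyna1 passed the test between EP_TPA and EP (adjusted p 0.903, 0.452 and 0.284). Nt5dc2, a nucleotidase-domain protein, averaged 6.32 ± 1.24 in EP_TPA, 15.6 ± 3.01 in EP and 1.84 ± 0.576 in sham, so EP_TPA was above sham and below EP. Rcc2, a regulator of chromosome condensation, had the same order with 35.97 ± 4.86, 48.4 ± 5.098 and 20.03 ± 1.18. Among genes lower than sham in both, Fgg, Cck and Cyr61 had log2 folds over EP of -0.19, 0.47 and 0.00 (adjusted p 0.489, 0.237 and 0.994).

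Replication and mitosis genes, which EP raised, gave no call between EP_TPA and sham. Of 30 DNA replication and nucleotide synthesis genes tested, 0 were called in either direction by limma, with 6 higher and 1 lower at an unadjusted p under 0.05, a share of 23.3% beside 19.1% of all genes tested. Their median log2 fold over sham was 0.20, against 0.0044 over all genes tested. Of 30 mitosis genes 0 were called, 2 were higher at an unadjusted p under 0.05, and the median was 0.22. Still, 8 of the 30 replication genes and 9 of the 30 mitosis genes had all EP_TPA libraries above all sham libraries, against 6.25% of all genes tested, and 29 of the 30 mitosis folds were positive. The mean of the replication list lay 0.13 to 0.26 above the sham average in the EP_TPA libraries (log2) and at -0.038 to 0.037 in the sham libraries, and that of the mitosis list at 0.10 to 0.36 in EP_TPA and -0.041 to 0.062 in sham. With library weights 5 replication genes were called higher and 2 lower, and in the fit of the 8 libraries alone 3 of 26 were called higher; of the mitosis list 1 gene was called higher under each. In EP, 28 replication genes and all 30 mitosis genes were called higher than sham, with medians of 1.31 and 1.85, against 16.7% of all genes tested. Mki67, the proliferation marker Ki-67, had 0.236, 0.151, 0.143 and 0.174 in EP_TPA, 1.82, 1.54, 1.45 and 1.11 in EP and 0.0984, 0.0978, 0.145 and 0.0706 in sham. Its EP_TPA and sham libraries overlapped (adjusted p 0.725), and its log2 fold over EP was -1.07 (adjusted p 7.98e-06) on the log2(level + 1) scale, which understates changes at levels this low. Top2a, the topoisomerase of dividing cells, averaged 1.03 ± 0.201 in EP_TPA, 7.56 ± 2.44 in EP and 0.766 ± 0.114 in sham.

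Mcm2, a subunit of the replicative helicase, had 6.68, 6.35, 6.85 and 6.096 in EP_TPA, 27.2, 33, 23.2 and 19.3 in EP and 4.12, 5.14, 3.95 and 4.696 in sham. All 4 EP_TPA libraries lay above all 4 sham libraries, but the log2 fold of 0.46 ± 0.14 did not pass the test (adjusted p 0.0783), and it did pass without rescaling (adjusted p 0.0371), in a fit of the 8 libraries alone (0.0368) or with library weights (0.00905). Of 15 cyclin, cyclin-dependent kinase and inhibitor genes tested, Cdk4 was higher and Cdkn1a lower. Cdk4, the kinase partner of D-type cyclins, averaged 97.97 ± 11.9 in EP_TPA, 164 ± 13.4 in EP and 61.7 ± 5.31 in sham, and EP_TPA overlapped neither group (log2 fold 0.66 over sham and -0.75 over EP, adjusted p 0.0018 and 0.000188). Cdkn1a, which encodes the inhibitor p21, had 44.97, 40.7, 33.9 and 68.9 in EP_TPA, 45.1, 56.2, 60.1 and 55.4 in EP and 135, 149.6, 131 and 166 in sham (log2 fold over sham -1.65, adjusted p 4.03e-05). Ccnd1, cyclin D1, averaged 41.7 ± 9.16 in EP_TPA and 35.8 ± 12.9 in sham and overlapped between them (adjusted p 0.734).

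**Figure D3:**
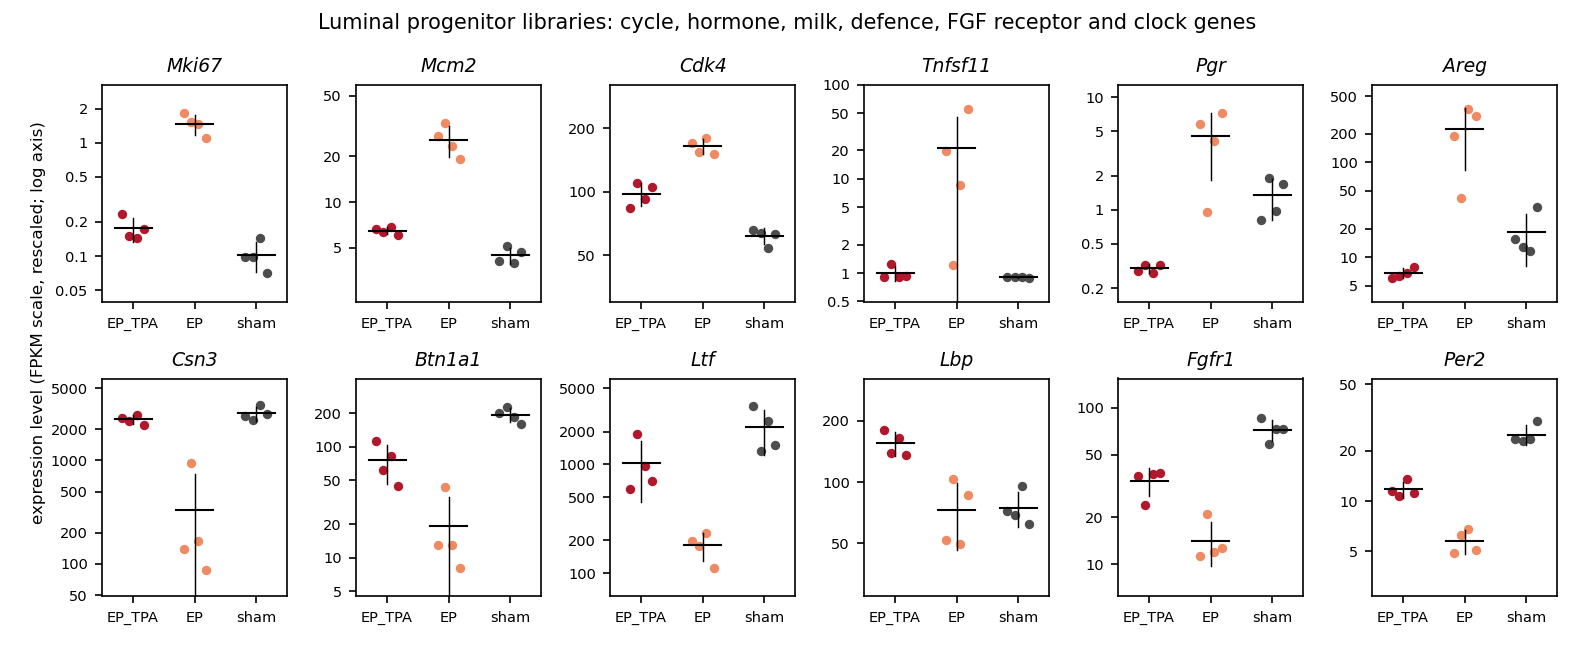
Levels (FPKM scale, rescaled, log axis) of 12 cell cycle, hormone, milk, defence, FGF receptor and clock genes in EP_TPA, EP and sham libraries; points are mice, horizontal lines means, vertical lines ± SD. Mki67, Mcm2 and Areg are highest in EP, Pgr is lowest in EP_TPA, Csn3 overlaps between EP_TPA and sham, and Fgfr1 and Per2 in EP_TPA lie between EP and sham.

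Tnfsf11, Wnt4 and Areg, which carry the progesterone signal between cells, did not pass the test between EP_TPA and sham, and all 3 were lower in EP_TPA than in EP. Tnfsf11, the gene of RANKL, had 0.8996, 1.26, 0.901 and 0.935 in EP_TPA, 19.99, 1.22, 8.56 and 55.8 in EP and 0.902, 0.9, 0.901 and 0.886 in sham, all EP_TPA libraries but 323 and the sham libraries lying close to the gene's lowest value of 0.886. The difference from sham did not pass the test (adjusted p 0.982), and EP_TPA was below EP, with a log2 fold of -2.66 (adjusted p 0.0102). Wnt4, a secreted Wnt ligand, had 1.15 to 1.66 in EP_TPA, 2.34 to 26.1 in EP and 3.16 to 7.03 in sham. Areg, the EGF family ligand amphiregulin, had 6.08 to 7.94 in EP_TPA, 41.95 to 368 in EP and 11.7 to 33.9 in sham. For Wnt4 and Areg no EP_TPA library reached the sham range, yet neither passed the test against sham (adjusted p 0.135 and 0.268). Both passed in the fit of the 8 EP_TPA and sham libraries alone (adjusted p 0.00276 and 0.0371). The mature luminal list holds Tnfsf11, Wnt4 and Areg themselves, so its mean is partly made of them. That mean was -0.95 to -1.13 in EP_TPA relative to sham and 0.72 to 1.40 in EP libraries other than 311. In EP 311 it was -0.64, and that library was also lowest in EP for Tnfsf11, Wnt4 and Areg. The part of mature luminal cells in these levels was not tested.

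Of 23 progesterone paracrine genes tested 0 were higher than sham and 2 lower, with a median log2 fold of -0.11. Over all genes tested 1.94% were higher and 3.48% lower. In EP 15 were higher and 4 lower than sham, with a median of 1.53, against 16.7% higher and 16% lower among all genes. The 2 lower in EP_TPA were Cited1, a transcriptional coregulator of hormone-responsive luminal cells, and Sgk1, a kinase induced by glucocorticoid and progesterone. Cited1 had 10.6, 11.04, 10.5 and 11.2 in EP_TPA, 31.3, 16.9, 42.2 and 66.4 in EP and 78.5, 119, 42.6 and 138 in sham (log2 fold over sham -2.88, adjusted p 0.000228). Sgk1 averaged 134 ± 34.7 in EP_TPA, 246 ± 24.2 in EP and 339.8 ± 101 in sham (-1.32, adjusted p 0.0105). Fkbp5, a chaperone of steroid receptors and a hormone-induced gene, overlapped between EP_TPA (6.503 to 10.4) and sham (8.18 to 12.3, adjusted p 0.827).

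Among 18 steroid receptor and coregulator genes tested, Esr1 and Pgrmc1 were lower and none was higher. Esr1, estrogen receptor alpha, had 6.03, 2.47, 3.07 and 2.55 in EP_TPA, 7.34, 2.87, 7.55 and 12.6 in EP and 8.34, 11.8, 10.3 and 16.6 in sham (log2 fold over sham -1.52 ± 0.32, adjusted p 0.0108). Pgr, the progesterone receptor itself, had 0.282, 0.322, 0.271 and 0.325 in EP_TPA, 5.83, 0.961, 4.12 and 7.23 in EP and 0.804, 1.93, 0.973 and 1.69 in sham. Each EP_TPA library was below each sham library, but the log2 fold of -0.82 on levels this low did not pass (adjusted p 0.193). Foxa1, the pioneer factor of the estrogen receptor, had 2.15 to 3.68 in EP_TPA, 5.36 to 60.6 in EP and 7.004 to 15.02 in sham (adjusted p against sham 0.0654). Foxa1 passed with a pseudocount of 0.1 (0.0364), in the fit of the 8 libraries alone (0.00434) and with library weights (0.00272), and Pgr with library weights (0.0321). EP 311, lowest in EP for the mature luminal list, was also the lowest EP library for Esr1, Pgr and Foxa1. These genes are members of that list, so the agreement is partly built in. The part of mature luminal cells in these receptor levels was not tested. Pgrmc1, a heme-binding membrane protein, was lower, with a log2 fold of -0.36 (adjusted p 0.0407), a call lost without EP_TPA 312, 323 or 328 or without sham 301, 310 or 326 (adjusted p 0.0629 to 0.116).

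Of 17 estrogen target genes tested, Rerg was higher and Cited1, Dnajc12 and Prlr lower than sham. Cited1 and Prlr are also among the 7 mature luminal markers called lower, and the part of that cell type was not tested. Rerg, a small GTPase regulated by estrogen, averaged 14.5 ± 2.38 in EP_TPA, 13 ± 7.16 in EP and 4.41 ± 0.253 in sham (adjusted p 0.019), and lost its call without EP_TPA 323, sham 310 or sham 326 (0.0536 to 0.0597). Dnajc12, a co-chaperone, had 5.33 to 5.57 in EP_TPA, 4.55 to 8.93 in EP and 13.6 to 26.7 in sham (log2 fold over sham -1.54, adjusted p 0.000275). Stc2, also on that list, averaged 11.5 ± 1.37 in EP_TPA, 143 ± 88.2 in EP and 39.2 ± 13.3 in sham and did not pass against sham (adjusted p 0.0691).

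In the prolactin and STAT5 list, 18 genes were tested, and receptors and transducers differed in direction. Stat5a, given above, was higher by a log2 fold of 1.70 ± 0.20 (adjusted p 9.43e-05), and Ghr, a receptor that signals through STAT5, was higher by 0.92. Prlr, the prolactin receptor, had 37.2, 31.7, 32.2 and 29.4 in EP_TPA, 249.8, 41.3, 209.9 and 404 in EP and 103, 148, 96.1 and 178 in sham. Prlr was lower than sham, with a log2 fold of -1.94 (adjusted p 0.0359), and lower than EP, with -2.37 (adjusted p 0.00413). The call against sham was lost without any 1 of the 8 libraries (adjusted p 0.0588 to 0.101). It was also lost without a filter on low values, and it held in the fit of the 8 libraries alone. Cish, a feedback inhibitor of cytokine receptors that STAT5 induces, had 10.9, 13.9, 9.56 and 9.68 in EP_TPA, 9.95, 17.2, 15.6 and 9.51 in EP and 29.1, 33.9, 29.2 and 27.9 in sham. It was lower than sham, with a log2 fold of -1.38 ± 0.17 (adjusted p 0.000167), while Socs2, another STAT5-induced inhibitor, averaged 14.8 ± 4.24 in EP_TPA and 7.305 ± 0.645 in sham and did not pass (adjusted p 0.206).

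The Cish promoter is printed because it is the member of this group in which the STAT recognition pattern was found. The pattern TTCNNNGAA, which reads the same on both strands, was searched from 250 bases before to 50 bases after the start of Hp, Stat5a, Ghr, Prlr and Cish, of which 4 had a full-length promoter entry in RefSeq (GRCm38.p6). Among these 4 only Cish held it, at 2 places, the first bases lying at positions 1 and 12 counted from the start. Of the promoters of tested genes 6.97% hold the pattern. Capitals mark the 2 matches in chr9:107296409-107296708, plus strand, read 5′ to 3′.
Cish: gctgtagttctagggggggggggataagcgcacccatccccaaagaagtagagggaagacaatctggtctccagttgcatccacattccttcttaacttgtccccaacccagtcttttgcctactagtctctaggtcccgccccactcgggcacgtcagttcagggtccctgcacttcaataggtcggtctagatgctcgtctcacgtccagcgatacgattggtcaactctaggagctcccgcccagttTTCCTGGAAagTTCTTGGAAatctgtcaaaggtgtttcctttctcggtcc

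Most milk protein genes did not pass the test against sham. Csn3, kappa casein, had 2589, 2406, 2751 and 2204 in EP_TPA, 139, 939, 165 and 88.1 in EP and 2673, 2454, 3440.3 and 2807 in sham, so EP_TPA and sham overlapped (adjusted p 0.905) and EP_TPA was above EP by a log2 fold of 3.56 (adjusted p 0.000174). Of 13 milk protein genes tested, Cel was higher and Csn1s2a lower, with a median log2 fold of -0.32. At an unadjusted limma p under 0.05, 2 were higher and 4 lower, a share of 46.2% beside 19.1% of all genes tested. Csn1s2a, a calcium-binding casein, averaged 4.04 ± 2.43 in EP_TPA and 24.96 ± 20.7 in sham (adjusted p 0.0287), a call lost without EP_TPA 312 or 336 or without sham 305 or 310 (0.0648 to 0.0874). Csn2, beta casein, had 2.84, 10.3, 13.7 and 2.303 in EP_TPA, 79.1, 44.4, 31.5 and 30.8 in EP and 9.98, 95.4, 55.01 and 13.7 in sham, overlapping between EP_TPA and sham (adjusted p 0.0746, and 0.0362 without sham 301). Wap, whey acidic protein, averaged 2.15 ± 0.951 in EP_TPA and 2.45 ± 2.06 in sham (adjusted p 0.992). Trf, the iron carrier transferrin, was listed at its lowest value of 289 in EP_TPA 312, 323 and 328 and at 11141 in EP_TPA 336, against 11434, 9357, 8696 and 8836 in sham. A listed lowest value can be a failed estimate, and Trf was the only 1 of 504 tested genes with a mean level over 100 that had such a value in these 8 libraries. It is also a member of the progenitor marker list, whose summed level within EP_TPA is highest in library 336.

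Genes of the milk fat globule and of secretion gave 1 higher and 3 lower of 16 tested. Aqp5, a water channel of secretory epithelium, averaged 61.6 ± 22.7 in EP_TPA, 41.4 ± 15.4 in EP and 152 ± 42.1 in sham (log2 fold over sham -1.33, adjusted p 0.00948). Btn1a1, butyrophilin of the milk fat globule membrane, had 112, 61.5, 83.1 and 44.2 in EP_TPA, 12.9, 43.3, 12.9 and 8.15 in EP and 161 to 228 in sham, so EP_TPA lay between EP and sham (log2 fold -1.42 over sham and 2.10 over EP, adjusted p 0.0423 and 0.0015). Plin2, a lipid droplet coat protein, averaged 184 ± 30.7 in EP_TPA and 380.1 ± 50.9 in sham (adjusted p 0.036). Pigr, the receptor that carries antibodies into milk, was higher with 5.53 to 16.6 in EP_TPA and 2.11 to 5.65 in sham, which overlapped (adjusted p 0.0375). The last 3 calls were fragile: Plin2 lost its call without any 1 library (0.0511 to 0.113), Btn1a1 without any but EP_TPA 312 (0.0718 to 0.120), and Pigr without any but EP_TPA 328 and sham 310 (0.0579 to 0.111). All 3 were also lost without a filter on low values. In the fit of the 8 EP_TPA and sham libraries alone Plin2 and Btn1a1 kept their calls and Pigr did not.

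Innate defence genes, a known trait of luminal progenitors, gave 3 calls in both directions. Of 26 tested, Hp and Lbp were higher and Cxcl16 lower, and the median log2 fold was -0.35. Lbp, which presents bacterial lipopolysaccharide, had 179, 139, 165 and 136 in EP_TPA, 51.7, 103, 49.5 and 85.99 in EP and 72.4, 69.1, 95.7 and 61.9 in sham (log2 fold over sham 1.05 ± 0.21, adjusted p 0.00713). Lcn2, the iron-scavenging lipocalin 2, averaged 2662 ± 193 in EP_TPA, 574 ± 525 in EP and 2761 ± 976 in sham, without a difference from sham that passed (log2 fold 0.01, SE 0.43). Ltf, lactoferrin, had 595, 1884, 968 and 706 in EP_TPA, 196, 178, 236 and 111 in EP and 3416, 1326, 2487 and 1507 in sham. Ltf did not pass against sham (log2 fold -1.12, adjusted p 0.0831, and 0.0194 without EP_TPA 323) and was above EP by 2.42 (adjusted p 0.000242). Cxcl16, a chemokine, was lower, with a log2 fold of -1.26 and overlapping groups (adjusted p 0.0423), and lost its call without EP_TPA 312, 323 or 328 or sham 301, 305 or 310 (0.0781 to 0.129). In EP 2 of the 26 were higher and 14 lower than sham, against 16.7% higher and 16% lower among all genes.

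**Figure D4:**
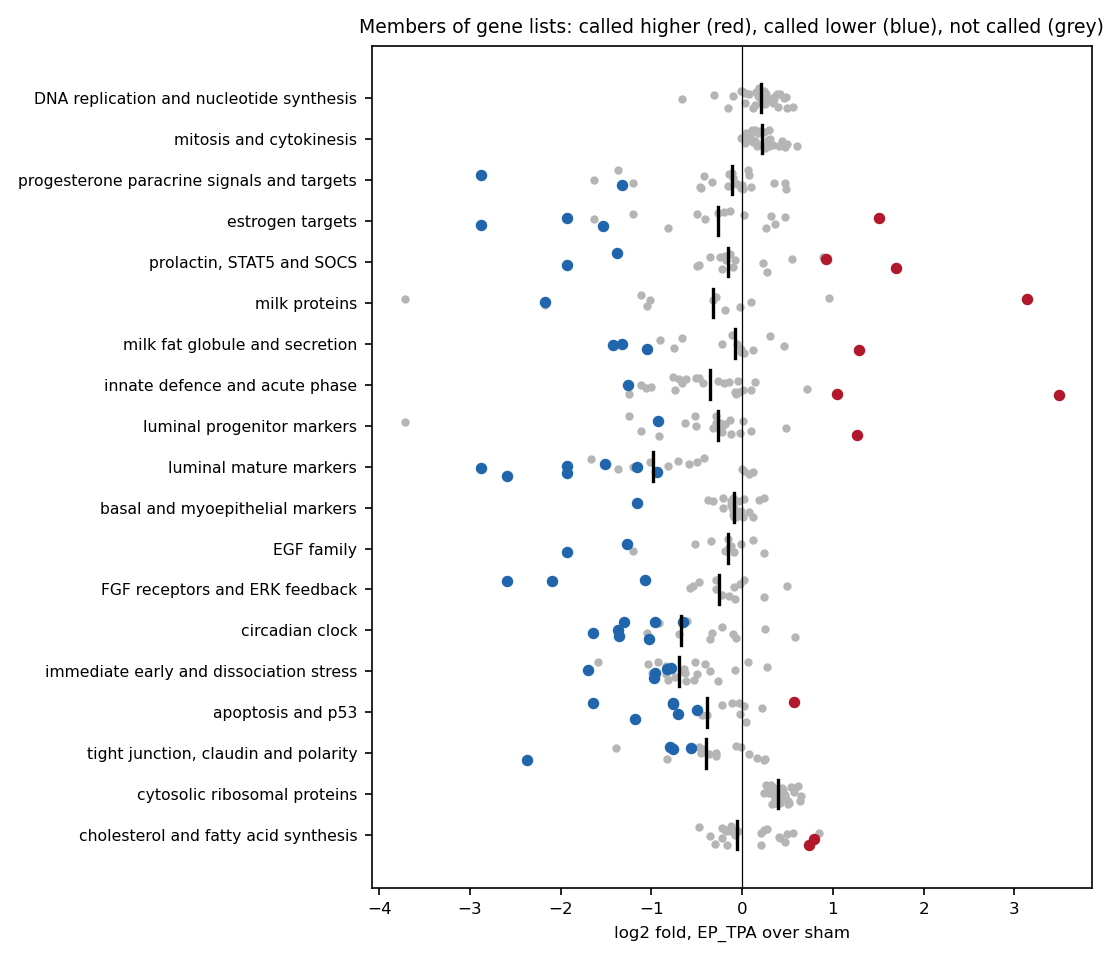
Log2 fold of EP_TPA over sham for the tested members of 19 gene lists; each point is a gene, red called higher, blue called lower and grey not called, and the black bar is the list's median. Clock, immediate early and mature luminal lists have medians of -0.67, -0.70 and -0.98, and the replication and mitosis lists sit slightly above 0 with no member called.

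Of 22 luminal progenitor markers, Itga2 was higher and Krt18 lower than sham, with a median log2 fold of -0.27. In EP 14 were lower than sham, against 16% of all genes, and the median was -1.24. Kit, the stem cell factor receptor, averaged 49.9 ± 19.9 in EP_TPA, 37.9 ± 20.8 in EP and 73.5 ± 11.3 in sham (adjusted p against sham 0.403). Elf5, the transcription factor of alveolar fate, averaged 22.1 ± 5.03, 12.2 ± 6.902 and 26.2 ± 4.93 (adjusted p 0.772). Itga2, an integrin that binds collagen, had 6.14 to 12.3 in EP_TPA and 2.696 to 3.69 in sham (log2 fold 1.26, adjusted p 0.00895). Krt18, a luminal keratin, averaged 1829.8 ± 572 in EP_TPA and 3443 ± 953 in sham (-0.93, adjusted p 0.0415), a call lost without EP_TPA 312, 323 or 328 or sham 301, 310 or 326 (0.0585 to 0.127). Its partner Krt8 had 879.6 to 2076 in EP_TPA and 1931 to 3365 in sham (adjusted p 0.0817, and 0.0236 without EP_TPA 336). Among 18 alveolar and progenitor transcription factors, Tbx3 and Elf3 were lower and none higher. Elf3, an epithelial ETS factor, averaged 62.9 ± 10.6 in EP_TPA, 35.2 ± 5.397 in EP and 159 ± 49.1 in sham (-1.29, adjusted p 0.00155).

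Mature luminal markers held as many lower calls as the clock list. Of 20 tested, 7 were lower and 0 higher than sham, with a median log2 fold of -0.98, against 3.48% called lower among all genes, and 14 of the 20 had all EP_TPA libraries below all sham libraries, against 7.85% of all genes. The 7 were Cited1, Fgfr2, Lgr5, Tbx3, Esr1, Wnt7b and Prlr. The count was 5 without EP_TPA 312, 328 or 336 or sham 301 or 326, and 3 without both EP_TPA 336 and sham 326. In EP 7 were higher and 4 lower than sham, with a median of 0.58, against 16.7% higher and 16% lower among all genes. Lgr5, an R-spondin receptor, had 0.285 to 0.897 in EP_TPA and 1.62 to 4.35 in sham (log2 fold -1.16, adjusted p 0.00272), and Wnt7b, a Wnt ligand, averaged 9.999 ± 3.95 and 19.8 ± 5.53 with overlapping groups (adjusted p 0.0324). Wnt7b lost its call without EP_TPA 312, 328 or 336 or sham 301 or 326 (0.0517 to 0.103). The basal markers gave 1 lower (Lgr5) of 28, and Krt14, a basal keratin, averaged 71.4 ± 3.43 in EP_TPA and 76.7 ± 3.703 in sham (adjusted p 0.651).

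**Figure D5:**
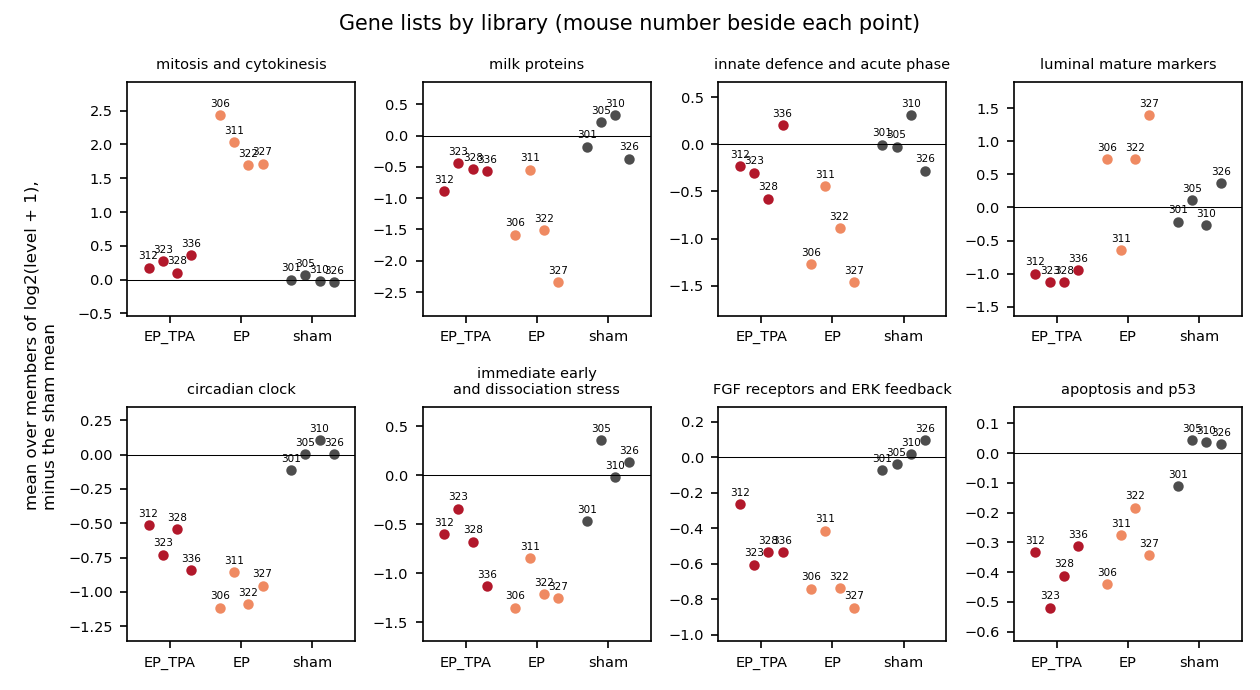
Mean over list members of log2(level + 1) minus the sham mean, for 8 gene lists in each EP_TPA, EP and sham library, with mouse numbers. The mature luminal list lies at -0.95 to -1.13 in EP_TPA and is split in EP, where mouse 311 is at -0.64 and the others at 0.72 to 1.40.

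FGF receptor and ERK feedback genes gave the same 3 calls, all lower, under every single-library omission and a count of 3 or 4 under every setting. Fgfr2, the receptor for stromal FGF ligands in luminal cells, had 8.11, 5.75, 4.98 and 6.75 in EP_TPA, 21.1, 6.91, 20.01 and 42.5 in EP and 38.96, 40.9, 31.7 and 68.3 in sham (log2 fold over sham -2.60, adjusted p 0.000758). Fgfr1 had 36.5, 23.98, 37.8 and 38.5 in EP_TPA, 11.2, 20.8, 11.9 and 12.6 in EP and 85.8, 58.5, 73.1 and 73.2 in sham, with no overlap between any groups (-1.08 over sham and 1.23 over EP, adjusted p 0.00365 and 0.000419). Dusp5, a phosphatase that inactivates ERK and is induced by it, averaged 56.9 ± 7.78 in EP_TPA, 34.6 ± 21.7 in EP and 251 ± 67.5 in sham (-2.09, adjusted p 0.000905). These were 3 of 16 tested, against 3.48% lower among all genes, with a list median of -0.26. Fgfr2 is also one of the mature luminal markers, whose part here was not tested.

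In the EGF family, 2 of 13 genes were lower and none higher, against 3.48% lower among all genes. Errfi1, a feedback inhibitor of the EGF receptor, had 139.8, 84.8, 64.5 and 184 in EP_TPA, 71.98, 152, 77.2 and 61.6 in EP and 569, 351, 462 and 332 in sham (log2 fold over sham -1.93, adjusted p 0.00244). Hbegf, a heparin-binding EGF ligand, averaged 27.7 ± 13.05 in EP_TPA and 66.6 ± 25.2 in sham (adjusted p 0.0235), and its call was lost without any library except EP_TPA 336 and sham 305 (0.0560 to 0.0759). Of 20 Notch pathway genes only Nrarp, a feedback inhibitor of Notch, was called, at 2.12 to 3.08 in EP_TPA and 3.87 to 7.85 in sham (-0.83, adjusted p 0.0138). Of 24 Wnt pathway genes Lgr5 and Wnt7b were called lower. Of 13 insulin-like growth factor genes only Grb14, an adaptor that inhibits the insulin receptor, was called (-1.03, adjusted p 0.00658). Lists with a single call are to be read beside the 5.42% of all genes called.

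Several clock genes were lower. Of 18 circadian clock genes tested 7 were lower and 0 higher than sham, against 3.48% lower among all genes, with a list median of -0.67. Of the 18, the 7 called were those with all EP_TPA libraries below all sham libraries, against 7.85% of all genes. Bhlhe40, a repressor in the clock loop, had 96.3, 63.4, 61.3 and 76.2 in EP_TPA, 61.2, 84.5, 55.6 and 67.3 in EP and 177, 209, 215 and 162 in sham (log2 fold over sham -1.36 ± 0.15, adjusted p 7.8e-05). Per2, a core repressor, had 11.5, 10.7, 13.6 and 11.2 in EP_TPA, 4.86, 6.28, 6.84 and 5.13 in EP and 23.5, 22.96, 23.5 and 30.1 in sham, so EP_TPA lay between EP and sham (-1.03 over sham and 0.92 over EP, adjusted p 0.00123 and 0.000875). Nr1d1, the nuclear receptor REV-ERB alpha, averaged 28.8 ± 8.31 in EP_TPA, 19.1 ± 9.37 in EP and 76.3 ± 21.8 in sham (-1.37, adjusted p 0.0105), and Cry2, a cryptochrome, 7.59 ± 2.86, 6.44 ± 1.91 and 19.5 ± 3.66 (-1.30, adjusted p 0.00366). Per1 had 7.11, 5.65, 8.35 and 3.21 in EP_TPA, 4.17, 4.502, 3.07 and 3.66 in EP and 12.03, 9.06, 16.7 and 12.1 in sham (-0.96, adjusted p 0.0127, and 0.0530 without sham 310). Dbp and Nr1d2, named after their values were seen, were lower, with log2 folds of -1.64 and -0.65 (adjusted p 0.0251 and 0.0315). Dbp lost its call without EP_TPA 323 or 336 or sham 305 or 326 (0.0539 to 0.0718), and Nr1d2 without EP_TPA 323 or 328 or sham 301, 305 or 310 (0.0701 to 0.117). The time of day of collection was not given in the labels. In EP 12 of the 18 were lower than sham, against 16% of all genes.

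The Per1 promoter is printed because several clock members were lower and the clock factors bind the E-box CACGTG, which reads the same on both strands. Of the 7 genes 5 had a full-length promoter entry in RefSeq (GRCm38.p6), and only that of Per1 held the letters, at position -166 counted from the start. Of the promoters of tested genes 10.5% hold it. Capitals mark the match in chr11:69098699-69098998, plus strand, read 5′ to 3′.
Per1: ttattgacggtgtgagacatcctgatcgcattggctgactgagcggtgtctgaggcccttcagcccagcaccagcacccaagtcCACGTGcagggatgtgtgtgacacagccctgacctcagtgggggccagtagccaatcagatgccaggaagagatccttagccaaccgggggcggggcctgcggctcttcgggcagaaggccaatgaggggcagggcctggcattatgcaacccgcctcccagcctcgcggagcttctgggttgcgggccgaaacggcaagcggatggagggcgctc

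Genes that cells switch on within minutes of a stimulus, and during tissue dissociation, included 5 lower. Of 26 immediate early and dissociation stress genes tested 5 were lower and 0 higher, against 3.48% lower among all genes, with a median log2 fold of -0.70. Btg2, an antiproliferative early gene, averaged 47.5 ± 16.1 in EP_TPA, 47.5 ± 13.2 in EP and 159 ± 54.7 in sham (-1.70, adjusted p 0.00249). Klf6, a zinc finger factor, had 134 to 213 in EP_TPA and 270.2 to 442 in sham, and Zfp36, which destabilizes cytokine mRNA, 211 to 237 and 320.3 to 587 (adjusted p 0.00316 and 0.00443). Jund, a JUN family factor, lost its call without EP_TPA 323 or 328 (adjusted p 0.0163 with all libraries, 0.0579 without EP_TPA 323 and 0.0557 without EP_TPA 328). Dnajb1, a heat shock co-chaperone, lost its call without any library except sham 301 (0.0515 to 0.139). The count was 3 without EP_TPA 323 or 328. The list's mean level relative to sham was -0.34 to -1.13 in EP_TPA and -0.47 to 0.36 among the sham libraries themselves, so sham 301 lay within the EP_TPA range. The part of cell dissociation in these differences was not tested. Of 16 genes shared by glucocorticoid and progesterone response, Errfi1, Sgk1, Per1 and Klf9 were lower and none higher, against 3.48% lower among all genes. Klf9, a hormone-induced zinc finger factor, lost its call without EP_TPA 323, 328 or 336 or sham 305 or 310 (0.0766 to 0.139), and the count was 2 without sham 310.

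Among 17 genes of apoptosis and the p53 response, 6 were lower and 1 higher, against 3.48% lower and 1.94% higher among all genes. Cdkn1a is given above, and Phlda3, a p53-induced inhibitor of AKT, averaged 5.04 ± 0.474 in EP_TPA, 8.13 ± 3.38 in EP and 12.9 ± 2.49 in sham (log2 fold over sham -1.19, adjusted p 0.002). Trp53 itself was higher, with 58.5, 61.7, 59.4 and 53.9 in EP_TPA, 78.5, 94.4, 89.5 and 57.7 in EP and 44.3, 30.1, 41.8 and 40.7 in sham (0.57, adjusted p 0.0283). Mdm2, the ligase that degrades p53, averaged 15.4 ± 2.87 in EP_TPA and 21.95 ± 1.501 in sham (-0.50, adjusted p 0.0315). Mcl1 and Bcl2l1, which protect from apoptosis, and Sesn2, a stress-induced regulator, were lower, with log2 folds of -0.77, -0.71 and -0.77. Only Cdkn1a and Phlda3 kept their call without every single library. The calls of Trp53, Mcl1, Mdm2, Bcl2l1 and Sesn2 were each lost without 6 or 8 of the 8 libraries, among them EP_TPA 323 and 328 and sham 310 and 326 for all 5 (adjusted p 0.0533 to 0.149). The list had 2 genes lower without EP_TPA 323 or 328 or sham 301, 310 or 326, 3 without EP_TPA 312 and 4 without EP_TPA 336.

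Of 18 tight junction, claudin and polarity genes 4 were lower, against 3.48% lower among all genes. Among the 4 were Prkci and Pard6b, members of the apical polarity complex, and Cldn4, a claudin. Cldn4 had 27.2, 62.3, 28.8 and 118 in EP_TPA, 131, 69.4, 189 and 150.0 in EP and 176, 511, 409 and 119 in sham, where sham 326 lay just above the highest EP_TPA library (log2 fold -2.37, adjusted p 0.027). The count was 0 without EP_TPA 323, EP_TPA 328 or sham 310, 1 without sham 301, 2 without EP_TPA 312, 3 without sham 326 and 5 without EP_TPA 336. Tnc, the matrix protein tenascin C, was the single call among 20 matrix genes, against 5.42% of all genes called. It was higher, with 41.5, 49.4, 53.6 and 61.8 in EP_TPA, 5.61, 8.24, 3.38 and 24.99 in EP and 6.19, 38.4, 8.24 and 7.13 in sham. Sham 305 lay close to the EP_TPA range (log2 fold 2.11, adjusted p 0.0363), and the call was lost without any library except sham 305 (0.0556 to 0.107).

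Each of the biosynthesis lists held 2 calls or fewer. Fasn, fatty acid synthase, had 24.8, 16.1, 20.4 and 16.2 in EP_TPA, 23.4, 27.04, 21.9 and 23.6 in EP and 11.2, 10.3, 10.4 and 10.5 in sham (log2 fold over sham 0.79, adjusted p 0.00496). Elovl6, a fatty acid elongase, had 3.02 to 4.76 in EP_TPA, 0.935 to 1.92 in EP and 1.65 to 2.08 in sham, higher than both (0.73 and 0.94, adjusted p 0.00845 and 0.000473). They were the 2 calls among 26 cholesterol and fatty acid synthesis genes, against 1.94% of all genes called higher. The median of that list was -0.052. All 37 cytosolic ribosomal protein genes had a positive log2 fold, with a median of 0.39, and limma called 0 of them, with 27 higher at an unadjusted p under 0.05, where 981 of all 11416 genes were higher. In 11 of the 37 all EP_TPA libraries lay above all sham libraries, against 6.25% of all genes. Without rescaling 10 of the 37 were called, and 4 with library weights. Dkc1, a nucleolar pseudouridine synthase, was the single call of 20 ribosome biogenesis genes, higher by 0.73 (adjusted p 0.00658). Egln3, an oxygen-sensing hydroxylase, was the single call of 21 glycolysis and hypoxia genes (4.19 ± 1.81 in EP_TPA, 4.46 ± 2.53 in EP and 15.98 ± 1.91 in sham, adjusted p 0.00686). Ddit3, a stress transcription factor, was the single call of 23 unfolded protein response genes and was lower, with a log2 fold of -0.78 (adjusted p 0.0116). These single calls are to be read beside the 5.42% of all genes called. Limma called 0 of 24 oxidative phosphorylation genes (5 at an unadjusted p under 0.05) and 0 of 23 interferon response genes (1 at an unadjusted p under 0.05).

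Markers of other cell types were present at low to moderate levels in both groups. Endothelial markers summed to 269 to 529 in EP_TPA and 285 to 555 in sham, with 0 of 19 called by limma and 0 at an unadjusted p under 0.05. Immune markers summed to 52.0 to 233 in EP_TPA and 41.1 to 264 in sham, and Ptprc, the pan-leukocyte antigen, was at 0.176 to 0.497 in EP_TPA and 0.0992 to 1.01 in sham. The single immune call was Cd68, a macrophage lysosomal protein, at 1.34, 1.73, 1.12 and 4.53 in EP_TPA and 8.18, 5.05, 6.98 and 4.7 in sham (log2 fold -1.27, adjusted p 0.0135, and 0.0505 without EP_TPA 328). Fibroblast markers summed to 53.6 to 131 in EP_TPA and 60.2 to 206 in sham, with 0 of 12 called by limma and 0 at an unadjusted p under 0.05.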

How the data were processed

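The series holds RNA-seq of sorted mammary fractions, and 1 deposited table gave expression values for 22007 rows in 47 libraries; 27 symbols that read as calendar dates were left out. The values fit FPKM in scale, no header names the unit, and per the labels' protocols libraries were made with SMART-Seq v4 and Nextera XT from RNA with an integrity number of 5 or more and read as 75-base pairs; the submitters' processing notes name STAR, Cufflinks, DESeq2 and mm9, without versions or roles. Identical values shared between libraries divided the series into 3 sets, 1 of which holds all 16 luminal progenitor libraries. From the shared lowest values, the deposited values were treated as FPKM shifted gene by gene within each set. That shift was inferred and not tested. Here the part above each gene's lowest value was rescaled by median ratios over 8232 genes (factors 0.962 to 1.26). Genes with a level of 1 or more in at least 3 progenitor libraries, and above their lowest value in 3, were tested on log2(level + 1) with limma 3.58.1 (R 4.3.3; trend, robust) in 1 fit of the 16 libraries in 4 groups (EP_TPA, EP_RU486, EP and sham), which share 1 estimate of spread, with Benjamini-Hochberg adjustment. The fit was tested on simulated data. FPKM are not counts, so no count model was used, and depth is unknown. Each luminal progenitor library is from a different mouse. Named genes are the 15 in each direction with the smallest p whose groups do not overlap, up to 5 called members per list and direction, 21 hormone, milk and cycle genes, and 8 in each direction apart from both sham and EP or apart from sham together with EP. The promoter patterns and the genes Dbp, Nr1d2, Trf, Stc2, Lcn2 and Socs2 were chosen after their values were seen. The comparison, the members and all 43 lists were chosen with earlier results of these data known, so the lists are described by counts and medians and not tested. In total 16 alternatives and 2 added after the data were seen were run. One called list member is counted but not reported here.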

Additional observations from a re-analysis of the deposited data

Results flagged for a closer look

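In 21 of 244 groups of 4 libraries examined (122 genes, EP_TPA and sham), 1 library lay far from the other 3; chance flags about 1 in 20 such groups. Of the genes higher in EP_TPA, Sectm1b was at 51.6 in EP_TPA 312 (other EP_TPA libraries 21.1 to 26.3) and at 8.11 in sham 310 (others 3.89 to 4.44), Rerg at 11.02 in EP_TPA 328 (others 15.3 to 16.1), Ghr at 18.6 in sham 326 (others 17.5 to 17.6), Dkc1 at 18.7 in EP_TPA 328 (others 17.9 to 18.04) and Tnc at 38.4 in sham 305 (others 6.19 to 8.24). Sham 326 was the library apart for 6 genes, also at 45.8 for Tspan1 (others 19.2 to 21.5), 4.195 for Grb14 (others 2.89 to 3.097), 30.1 for Per2 (others 22.96 to 23.5), 22.3 for Nr1d2 (others 25.7 to 26.3) and 0.886 for Tnfsf11 (others 0.9 to 0.902). Within EP_TPA, library 336 was apart for Trf at 11141 (others 289), Krt80 at 9.602 (others 3.12 to 3.801), Upk3a at 2.33 (others 1.97 to 2.02) and Elf5 at 14.6 (others 24.1 to 25.3). Library 312 was apart for Esr1 at 6.03 (others 2.47 to 3.07) and Jund at 299.6 (others 194 to 205). Library 323 was apart for Fgfr1 at 23.98 (others 36.5 to 38.5) and Tnfsf11 at 1.26 (others 0.8996 to 0.935), and library 328 for Fam25c at 20.9 (others 17.3 to 17.6). Sham 305 was apart for Ddit3 at 31.6 (others 21.1 to 22.2). All values are levels on the FPKM scale.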

How the results depend on the processing

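No paired analysis was possible because no mouse gave both an EP_TPA and a sham library. No call among the named genes changed sign under any of the 18 alternatives, and of 102 called genes 64 were called under each one in which they were tested, while 38 lost the call under at least 1. Of 20 genes not called that were followed through the alternatives, 10 were called under at least 1. These 20 include Plet1, which is not described above, and leave out Stc2, Lcn2 and Socs2. The count of genes changed between EP_TPA and sham was 619, and 1470 with library weights, 586 higher and 884 lower. The lowest weights were those of EP 327 (0.255), EP_TPA 336 (0.36) and EP 311 (0.397). Without rescaling the median log2 fold was 0.0974, against 0.0044 with it, and the split was 443 higher and 243 lower. Why the libraries differ in scale was not tested. Leaving out single libraries gave 334 to 716 genes changed, 114 to 260 higher and 215 to 456 lower. The count between EP_TPA and EP was 2080, and 1379 with the stricter filter, which tested fewer genes (7385). Without a filter on low values 525 genes changed between EP_TPA and sham, and with a pseudocount of 0.1 623 did. With 4 mice in each group and unknown depth, small differences are limited. Differences of genes near their lowest value are limited too, since a shift before deposit would alter fold sizes.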

Other observations

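Further genes called among the lists came from the one-carbon enzyme, adipocyte marker and keratin lists. Shmt2, the mitochondrial serine hydroxymethyltransferase, had 21.2, 25.1, 26.4 and 17.4 in EP_TPA, 30.5, 29.96, 27.4 and 25.4 in EP and 19, 13.5, 13.96 and 15.7 in sham, and Chac1, which degrades glutathione, averaged 1.18 ± 0.509 in EP_TPA and 2.95 ± 0.371 in sham (limma, adjusted p 0.0363 and 0.0479). Shmt2 lost its call without EP_TPA 312, 323 or 328 or sham 305, 310 or 326 (0.0562 to 0.126), and Chac1 without any 1 of the 8 libraries (0.0549 to 0.141). Pparg, a nuclear receptor that drives fat cell differentiation and is also expressed in epithelium, averaged 5.54 ± 0.845 in EP_TPA, 5.45 ± 1.46 in EP and 8.56 ± 0.816 in sham (adjusted p 0.0398), and lost its call without any library except EP_TPA 336 (0.0557 to 0.142). Krt80, an epithelial keratin, had 3.64, 3.801, 3.12 and 9.602 in EP_TPA and 35.3, 13.4, 24.7 and 17.6 in sham (log2 fold -2.002, adjusted p 0.00115) and kept its call under all 18 alternatives.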
